A study of Homo sapiens with 12 samples.

Results

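RAB genes encode small GTPases that give each membrane compartment of the cell its identity, and the 64 described here are all the rows of a count table of 55765 genes whose symbol is RAB followed by a number, with at most 1 further letter and 1 further digit. A RAB bound to GTP sits on a membrane and recruits effectors, which are motors, tethers and fusion factors. Exchange factors load the GTP, GTPase-activating proteins of the TBC family end the signal, and escort and dissociation proteins carry the inactive RAB through the cytosol. In myeloid cells RABs are best known for phagosome maturation and for the release of granules made from lysosome-related organelles.

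RNA was sequenced from OCI-AML2, an established line of human acute myeloid leukaemia, in 4 groups of 3 libraries, after 48 h with doxycycline or vehicle. The groups were cells with S222A MEF2C given doxycycline (S222A induced), cells with S222A MEF2C given vehicle (S222A uninduced), cells with wild-type MEF2C given doxycycline (WT induced) and cells with wild-type MEF2C given vehicle (WT uninduced). MEF2C is a MADS-box transcription factor, and S222A puts an alanine in place of a serine. All cells came from single-cell clones, and the labels give neither the number of clones nor doxycycline-treated cells without a construct, so a difference between the lines cannot be told apart from a difference between clones, nor an induction effect from an effect of doxycycline itself. Whether replicates were grown apart is not in the labels, so a p-value sets a difference against the spread of these libraries alone, which may be technical.

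The libraries held 875710 to 13134791 counts. RAB genes took 0.225 to 0.243% of the counts in S222A induced libraries, 0.231 to 0.241% in S222A uninduced, 0.213 to 0.223% in WT induced and 0.217 to 0.227% in WT uninduced. MEF2C itself, in counts per 1e6 counts (CPM), was at 920, 956 and 786 in S222A induced libraries, against 605, 701 and 802 in S222A uninduced ones. It was at 674, 844 and 812 CPM in WT induced libraries, against 747, 645 and 817 CPM in WT uninduced ones. These groups overlapped, with a fold of 1.26 on S222A induction (95% interval 0.989 to 1.62, edgeR adjusted p = 0.285) and 1.05 on WT induction (0.825 to 1.35, adjusted p = 1). Neither induction was called at the targeted gene in this fit. With a term for the deepest library of each group, S222A induction was called (log2 0.34, adjusted p = 0.0282, where the alternatives ran from 0.0282 to 0.596), and reads of the transgene and of the native gene are pooled under this symbol. The summed level of 8 myeloid markers was 794 to 886 CPM in S222A induced, 724 to 825 CPM in S222A uninduced, 750 to 896 CPM in WT induced and 714 to 900 CPM in WT uninduced libraries, with CEBPA at 0 in every library and 0 of 4 T-cell and 0 of 4 B-cell markers above the filter on low counts. PTPRC, a gene of all leukocytes, made up most of that sum, at 643 to 760 CPM in S222A induced and 539 to 624 CPM in S222A uninduced libraries (log2 0.28, adjusted p = 0.368). The log2 fold changes of the other 5 tested markers on S222A induction were negative: -1.71 for MPO, which was called, -1.47 for LYZ, -0.3 for CSF3R, -0.27 for SPI1 and -0.21 for CD33. Of other cell types, 1 of 4 epithelial markers (CDH1, 12.4 to 37.2 CPM over all libraries) and 1 of 4 megakaryocyte markers (GP9, 1.1 to 6.23 CPM) passed the filter.

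Of the 64 RAB genes, 37 passed the filter on low counts and were tested. The other 27 included 5 with no count in any library (RAB19, RAB1C, RAB40A, RAB42P1 and RAB43P1) and 22 with at least 1 count, of which RAB44 had the highest total at 101 counts. The tested members covered every step of the route. There were 8 for transport from the ER to and within the Golgi, 6 of the early endosome, 7 of recycling, 3 of the late endosome and lysosome, 5 of lysosome-related organelles and granule release, and 7 of polarised exocytosis, cilia and junctions, besides the SOCS-box member RAB40C.

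Per kilobase of exon, in the 6 uninduced libraries, the order of levels began with RAB7A, the RAB of late endosomes and lysosomes, at 115 ± 7.91 CPM per kb (SD, n = 6). RAB5C, an early endosome RAB, followed at 102 ± 15.9 CPM per kb, a level whose spread reached that of RAB7A. RAB2A of the Golgi stood at 45.6 ± 4.45 CPM per kb, RAB4A of fast recycling at 36.9 ± 5.73 CPM per kb and RAB10 of exocytosis at 36.7 ± 5.1 CPM per kb. RAB4A and RAB10 did not differ beyond their spread. Together RAB5C, RAB7A and RAB2A gave 35.6% of the 125262 RAB counts. The exon lengths are from GENCODE 29, which is not the annotation used for the counts, and 30.4% of the exon bases of RAB5C lie under another gene there.

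Among close paralogues the measured levels were uneven. RAB27A, which docks lytic granules and melanosomes, stood at 19.6 CPM per kb in the uninduced libraries and RAB27B, its partner in exosome and granule release, at 0.553 CPM per kb. RAB1B had 39 counts in all 12 libraries together and RAB5B had 9. In GENCODE 29, 42.6% of the exon bases of RAB1B and 0.516% of those of RAB5B lie under another gene. The annotation and strandedness of the counting are not given. Low expression of RAB1B or RAB5B therefore cannot be told apart here from reads left out in counting.

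**Figure D1:**
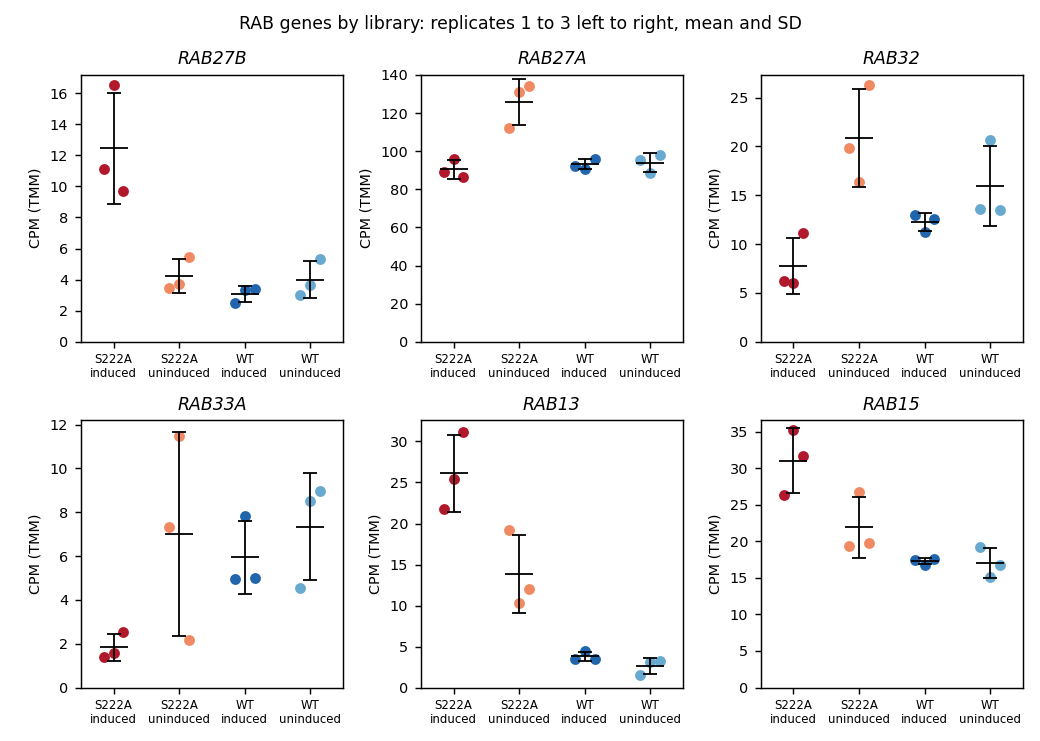
Levels of RAB genes in each library, in CPM, for the 4 groups, with replicates 1 to 3 from left to right as points and the mean with SD as bars. RAB27B lay at 9.72 to 16.5 CPM in S222A induced libraries and at or below 5.48 CPM elsewhere, and RAB13 was higher in both S222A groups than in both WT groups.

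On induction of S222A MEF2C, 1 RAB gene rose (RAB27B) and 2 fell (RAB32 and RAB33A) of the 37 tested, with S222A induced set against S222A uninduced libraries. That is 8.11% of the RAB genes, where 4.45% of all 11474 tested genes were called by the same edgeR test at an adjusted p under 0.05 (2.8% higher, 1.66% lower). With 3 genes, the share of RAB genes is close to that background. An unadjusted p under 0.05 was found for 10 RAB genes (27%) and for 19.1% of all tested genes. RAB27B and RAB32 both serve lysosome-related organelles, and RAB33A is a Golgi-associated RAB. The median log2 fold change of the 37 was 0.07 and that of all tested genes 0.01, with RAB genes between -1.94 and 1.66. The groups did not overlap for 9 RAB genes (5 higher, 4 lower), or 24.3%, where 27.5% of all genes had groups that did not overlap (14.4% higher, 13% lower).

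The 250 bases upstream of the outermost RefSeq start of RAB27B and RAB32, which moved in opposite directions on induction, and of RAB13, which differed between the lines, are shown because MEF2C is a transcription factor (RefSeq, GRCh38.p14, each on the gene's own strand). They lie at chr18:54717607-54717856 on the plus strand, chr6:146543583-146543832 on the plus strand and chr1:153986340-153986589 on the minus strand, each immediately before the first exon. The capitals mark the letters CGTCA, the reverse complement of the CRE half-site TGACG.
RAB27B: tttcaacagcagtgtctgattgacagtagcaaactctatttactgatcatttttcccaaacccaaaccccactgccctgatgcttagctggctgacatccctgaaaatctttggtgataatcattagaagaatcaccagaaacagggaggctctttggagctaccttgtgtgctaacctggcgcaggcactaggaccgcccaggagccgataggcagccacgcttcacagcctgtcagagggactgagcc
RAB32: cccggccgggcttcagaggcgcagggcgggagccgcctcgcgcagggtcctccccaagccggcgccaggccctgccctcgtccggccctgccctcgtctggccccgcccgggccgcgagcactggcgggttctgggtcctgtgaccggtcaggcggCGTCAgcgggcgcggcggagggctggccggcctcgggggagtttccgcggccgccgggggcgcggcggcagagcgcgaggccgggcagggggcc
RAB13: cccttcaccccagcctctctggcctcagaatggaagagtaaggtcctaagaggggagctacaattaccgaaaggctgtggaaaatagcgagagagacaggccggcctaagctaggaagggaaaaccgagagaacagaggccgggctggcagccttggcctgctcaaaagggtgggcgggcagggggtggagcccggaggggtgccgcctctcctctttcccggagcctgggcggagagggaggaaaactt
RAB27B had the fewest G and C bases of these, at 50.4%, with 61.2% for RAB13 and 82% for RAB32. Promoters were found for 29 of the 37 tested RAB genes (41 promoters), and a match describes letters only. The MEF2 consensus, searched on both strands, was in 0 of the 41 windows, where 2.8% of all 35116 promoters held it. CACGTG was in 5 of 41 (12.2%), at RAB21, RAB24, RAB31, RAB4A and RAB5A, and in 6.34% of all promoters. TGACG was in 15 of 41 (36.6%), with both windows of RAB40C among them, and in 21.2% of all promoters. The RAB windows held more G and C bases, with a median of 64.8%, than all promoters, with 58%, and the part of that in these shares was not tested. These motifs share letters, so matches to them can overlap.

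RAB27B, which anchors secretory vesicles at the plasma membrane, was at 11.1, 16.5 and 9.72 CPM in S222A induced libraries, against 3.48, 3.69 and 5.48 CPM in S222A uninduced libraries. Every S222A induced library was above every S222A uninduced one. That gave a fold of 3.16 (interval at 95% of 1.9 to 5.25; edgeR adjusted p = 0.0152), or 1.66 ± 0.34 (SE) on the log2 scale. The call was lost without S222A induced replicate 2 (adjusted p = 0.0835), S222A uninduced replicate 1 (0.0912) or S222A uninduced replicate 2 (0.0746), over a range of 0.0238 to 0.0912 when single libraries were left out. In the WT line RAB27B was at 2.48, 3.36 and 3.42 CPM in induced libraries, against 3.03, 3.67 and 5.31 CPM in uninduced ones, and these overlapped. The WT fold was 0.745 (0.423 to 1.31). The S222A effect minus the WT effect was 2.08 ± 0.51 on the log2 scale, a fold ratio of 4.24 (1.98 to 9.08), which did not pass the adjustment over all genes (edgeR adjusted p = 0.321).

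RAB27A is its closest paralogue. It was at 89, 96.1 and 86.5 CPM in S222A induced libraries, against 112, 131 and 134 CPM in S222A uninduced libraries. All 3 induced libraries were lower, with a fold of 0.724 (0.593 to 0.884), but the edgeR adjusted p of 0.0678 missed the threshold. In the WT line it was at 92.4, 90.8 and 96.1 CPM in induced libraries, against 95.4, 88.5 and 98 CPM in uninduced ones, with a fold of 0.993 (0.812 to 1.21). The S222A induced libraries overlapped with the WT libraries, and the S222A uninduced libraries stood above all others.

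RAB32, which routes cargo to melanosomes and to bacterial vacuoles, was at 6.23, 6.02 and 11.1 CPM in S222A induced libraries, against 19.8, 16.4 and 26.3 CPM in S222A uninduced libraries. The groups did not overlap, and the fold was 0.399 (0.258 to 0.619; log2 -1.32 ± 0.29 SE, edgeR adjusted p = 0.0242). This call was lost without S222A induced replicate 1 (adjusted p = 0.104), S222A induced replicate 2 (0.104), S222A uninduced replicate 1 (0.0774) or S222A uninduced replicate 3 (0.0634), over a range of 0.0143 to 0.104. In the WT line the levels were 13, 11.2 and 12.6 CPM in induced libraries, against 13.6, 20.7 and 13.5 CPM in uninduced ones. These did not overlap either, with a fold of 0.77 (0.495 to 1.2, adjusted p = 1). The log2 fold change of the S222A line minus that of the WT line was -0.95 ± 0.41 (adjusted p = 0.726).

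RAB33A was at 1.39, 1.56 and 2.55 CPM in S222A induced libraries, against 7.33, 11.5 and 2.19 CPM in S222A uninduced libraries. The third uninduced library, with 2 counts, lay inside the induced range, so the groups overlapped. The fold was 0.261 (0.13 to 0.523; edgeR adjusted p = 0.0341), and the call held without S222A uninduced replicate 3 (adjusted p = 0.0142) but was lost when any other S222A library was left out (highest adjusted p = 0.153). The WT line was at 4.97, 7.85 and 5 CPM when induced, against 4.54, 8.5 and 8.99 CPM when uninduced, with a fold of 0.739 (0.376 to 1.45). RAB33B, its paralogue that acts in autophagosome formation, averaged 5.58 ± 0.871 CPM in S222A induced and 6.92 ± 1.96 CPM in S222A uninduced libraries (SD, n = 3 each) and was not called.

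The number of RAB calls on S222A induction depended on single libraries. It was 3 with all libraries, 1 without S222A induced replicate 1, 1 without S222A induced replicate 2, 0 without S222A uninduced replicate 1 and 1 without S222A uninduced replicate 2. The one call left without S222A induced replicate 2 was RAB2B, which is none of the 3. Leaving out S222A induced replicate 3 or S222A uninduced replicate 3 left 2 of the 3. Calls over all tested genes fell as well, from 511 with all libraries to between 187 and 329 with 1 S222A library left out.

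**Figure D2:**
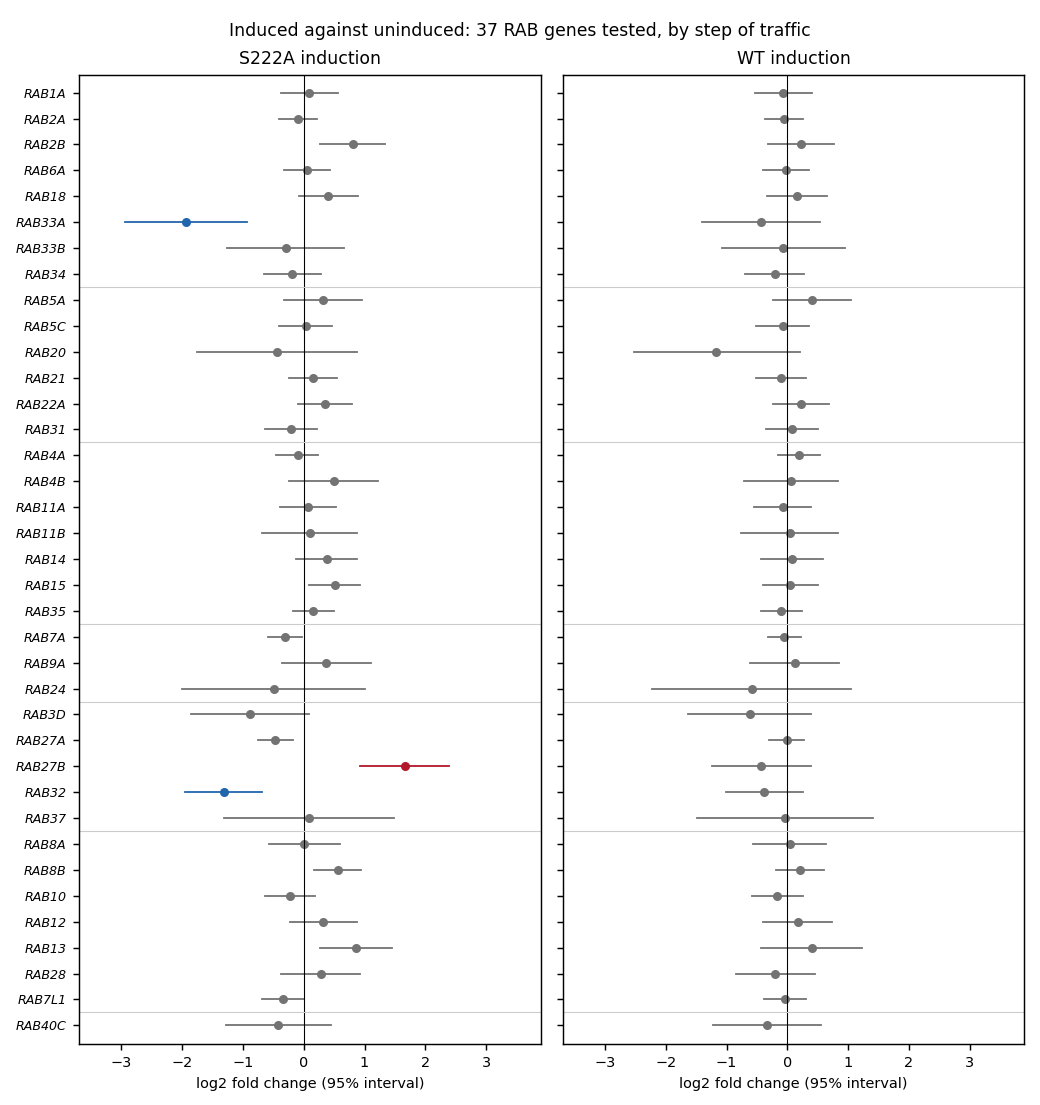
Log2 fold change with its 95% interval for the 37 tested RAB genes on S222A induction and on WT induction, grouped by step of traffic. Red marks genes that rose, blue genes that fell and grey genes not called; the interval of RAB27B runs above 0 in the S222A line and across 0 in the WT line.

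Several RAB genes had S222A groups that did not overlap without passing the adjustment. RAB2B, a Golgi RAB, was at 45.4, 23.4 and 39.8 CPM in S222A induced libraries, against 22.2, 20.1 and 18.6 CPM in S222A uninduced ones (fold 1.75, edgeR adjusted p = 0.0841). RAB8B, of transport to the plasma membrane, was at 37.8, 42.4 and 45.5 CPM in S222A induced libraries, against 29.1, 27.1 and 29.6 CPM in S222A uninduced ones (fold 1.47, adjusted p = 0.0961). RAB13, of tight junction traffic, was at 21.8, 25.4 and 31.1 CPM in S222A induced libraries, against 19.2, 10.3 and 12 CPM in S222A uninduced ones (fold 1.81, adjusted p = 0.0983). All of these were higher in every S222A induced library. On the lower side, RAB7A was at 245, 280 and 264 CPM in S222A induced libraries, against 302, 334 and 344 CPM in S222A uninduced ones (fold 0.806, adjusted p = 0.208). RAB7L1, now called RAB29 and known from the trans-Golgi network and stressed lysosomes, was at 77.6, 70.2 and 72.2 CPM in S222A induced libraries, against 81.4, 96 and 103 CPM in S222A uninduced ones (fold 0.79, adjusted p = 0.259). RAB22A of the early endosome completed the 9, higher in induced libraries with a log2 fold change of 0.35 (adjusted p = 0.41).

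By step of traffic, the calls fell on 2 of 5 tested members for lysosome-related organelles and granule release and on 1 of 8 for the ER and Golgi, where 4.45% of all genes were called. The 2 granule genes, RAB27B and RAB32, moved in opposite directions. No member of the early endosome (0 of 6), recycling (0 of 7), late endosome (0 of 3) or polarised exocytosis (0 of 7) steps was called on S222A induction. The last of these steps takes in cilia and junctions. RAB7L1 and RAB12 were counted in it, though both are described here by other routes. In the granule group RAB3D, a RAB of secretory granules, was at 2.08, 6.24 and 3.35 CPM in S222A induced libraries, against 4.93, 9.44 and 8.76 CPM in S222A uninduced ones. Those values overlapped (log2 -0.89 ± 0.45, edgeR adjusted p = 0.309). RAB37, also of granules, had a fold of 1.06 with an interval of 0.403 to 2.81, so a difference was not detectable at this depth. The recycling RABs RAB15, RAB14, RAB4B and RAB35 had log2 fold changes of 0.51, 0.38, 0.49 and 0.16. RAB18 of lipid droplets and the ER, at 0.4 ± 0.22, and the early endosome RABs RAB5A at 0.32 and RAB31 at -0.21 were not called (adjusted p = 0.365, 0.633 and 0.638). RAB9A of late endosome to Golgi transport, RAB12 of receptor degradation, RAB28 of cilia and RAB21 of integrin traffic had positive log2 fold changes of 0.37, 0.32, 0.28 and 0.15, and RAB10 and RAB40C negative ones of -0.23 and -0.42, none of them called. The other ER and Golgi members had log2 fold changes of -0.09 for RAB2A, 0.09 for RAB1A, 0.06 for RAB6A, -0.19 for RAB34 and -0.3 for RAB33B. None of these was called.

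On induction of wild-type MEF2C, 0 of 37 RAB genes were called by edgeR, 0 by DESeq2 and 0 by limma-voom, and 0 had an unadjusted p under 0.05. Among all tested genes 0.00872% were called by edgeR and 1.7% had an unadjusted p under 0.05. The smallest unadjusted p belonged to RAB20, an early endosome and phagosome RAB, at 2.19, 0 and 0.789 CPM in WT induced libraries, against 3.03, 4.64 and 1.23 CPM in WT uninduced ones. Its fold was 0.446 (0.173 to 1.15, edgeR adjusted p = 1), and its groups overlapped. The WT groups did not overlap for 3 RAB genes, or 8.11%, where 5.79% of all genes had groups that did not overlap (2.81% higher, 2.98% lower). Those were RAB32 on the lower side and RAB13 and RAB22A on the higher side. The median log2 fold change of the RAB genes was -0.04 and that of all tested genes 0.01.

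The difference of the 2 induction effects was called for 0 of 37 RAB genes by edgeR, DESeq2 and limma-voom, where 0.0784% of all genes were called by edgeR. At an unadjusted p under 0.05 there were 4 RAB genes (10.8%), where 6.68% of all genes had one. They were RAB27B with a higher fold in the S222A line, and RAB27A, RAB33A and RAB32 with lower ones. RAB27A differed by -0.46 ± 0.19 on the log2 scale (edgeR adjusted p = 0.716) and RAB33A by -1.5 ± 0.65 (adjusted p = 0.716). No RAB gene is therefore shown to respond to induction differently in the S222A and WT lines.

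Between the induced lines, with S222A induced set against WT induced libraries, 3 RAB genes were higher in the S222A line and 0 lower. That is 8.11% of the 37, where 6.34% of all tested genes were called (3.73% higher, 2.61% lower). RAB13, RAB27B and RAB15 were the 3, and they belong to junction traffic, granule release and receptor recycling. The groups did not overlap for 12 RAB genes (8 higher, 4 lower), or 32.4%, where 28% of all genes had groups that did not overlap (15.2% higher, 12.9% lower). At an unadjusted p under 0.05 there were 9 RAB genes (24.3%), with 21.2% of all genes.

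RAB13 differed most. It was at 21.8, 25.4 and 31.1 CPM in S222A induced libraries, against 3.51, 4.48 and 3.42 CPM in WT induced libraries, a fold of 7.22 (4.47 to 11.7; log2 2.85 ± 0.32 SE, edgeR adjusted p = 0.000248). Without doxycycline it was at 19.2, 10.3 and 12 CPM in S222A uninduced libraries, against 1.51, 3.09 and 3.27 CPM in WT uninduced libraries, a fold of 5.24 (3.15 to 8.7; adjusted p = 0.00638). Every S222A library was above every WT library, with and without doxycycline. The call between the induced lines held whichever single library was left out (adjusted p = 0.000989 to 0.0042). That between the uninduced lines was lost without S222A uninduced replicate 1 (adjusted p = 0.0507). In GENCODE 29, 24.8% of the exon bases of RAB13 lie under AL358472.6. That gene is on the same strand, so reads from the shared bases cannot be told apart by strand.

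RAB27B was at 11.1, 16.5 and 9.72 CPM in S222A induced libraries, against 2.48, 3.36 and 3.42 CPM in WT induced libraries, a fold of 4.14 (2.47 to 6.94; edgeR adjusted p = 0.00475). This call held whichever single library was left out (adjusted p = 0.00917 to 0.0295). Without doxycycline the lines overlapped for RAB27B, with 3.48, 3.69 and 5.48 CPM in S222A uninduced libraries, against 3.03, 3.67 and 5.31 CPM in WT uninduced libraries, and a fold of 0.976 (0.562 to 1.7). RAB15, of receptor recycling, was at 26.3, 35.2 and 31.6 CPM in S222A induced libraries, against 17.5, 16.8 and 17.6 CPM in WT induced libraries. Its fold was 1.79 (1.33 to 2.41; adjusted p = 0.0265), and the call held without S222A induced replicate 1 (0.0441) but was lost when any other library of these groups was left out (highest adjusted p = 0.114). Without doxycycline RAB15 was at 19.3, 26.7 and 19.7 CPM in S222A uninduced libraries, against 19.2, 15.1 and 16.7 CPM in WT uninduced libraries, which did not overlap but were not called (adjusted p = 0.754).

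RAB34, of Golgi and lysosome positioning and of macropinocytosis, was at 56.1, 50.6 and 43.6 CPM in S222A induced libraries, against 32.4, 29.1 and 27.6 CPM in WT induced libraries. Without doxycycline it was at 49.7, 55.4 and 67.9 CPM in S222A uninduced libraries, against 41.9, 38.8 and 22.9 CPM in WT uninduced libraries. All S222A libraries were higher in both pairs, with folds of 1.67 and 1.64, and neither passed (edgeR adjusted p = 0.067 and 0.358). RAB33A, RAB32, RAB7L1 and RAB7A were lower in every S222A induced library than in every WT induced library, also without passing (adjusted p = 0.0877, 0.247, 0.218 and 0.586). RAB8B, RAB18, RAB35 and RAB31 were higher in every S222A induced library than in every WT induced one, again without passing (edgeR adjusted p = 0.144, 0.328, 0.396 and 0.47).

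Between the uninduced lines, with S222A uninduced set against WT uninduced libraries, RAB13 was the 1 RAB gene called (2.7% of 37, where 0.392% of all tested genes were called, 0.34% higher and 0.0523% lower). An unadjusted p under 0.05 was found for 4 RAB genes (10.8%) and for 7.48% of all genes. Groups that did not overlap numbered 4, all higher in the S222A line: RAB13, RAB34, RAB27A and RAB15. They made up 10.8% of the RAB genes, where 12.3% of all genes had groups that did not overlap (6.24% higher, 6.1% lower). RAB27A was at 112, 131 and 134 CPM in S222A uninduced libraries, against 95.4, 88.5 and 98 CPM in WT uninduced libraries, a fold of 1.33 (1.09 to 1.63; edgeR adjusted p = 0.41).

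**Figure D3:**
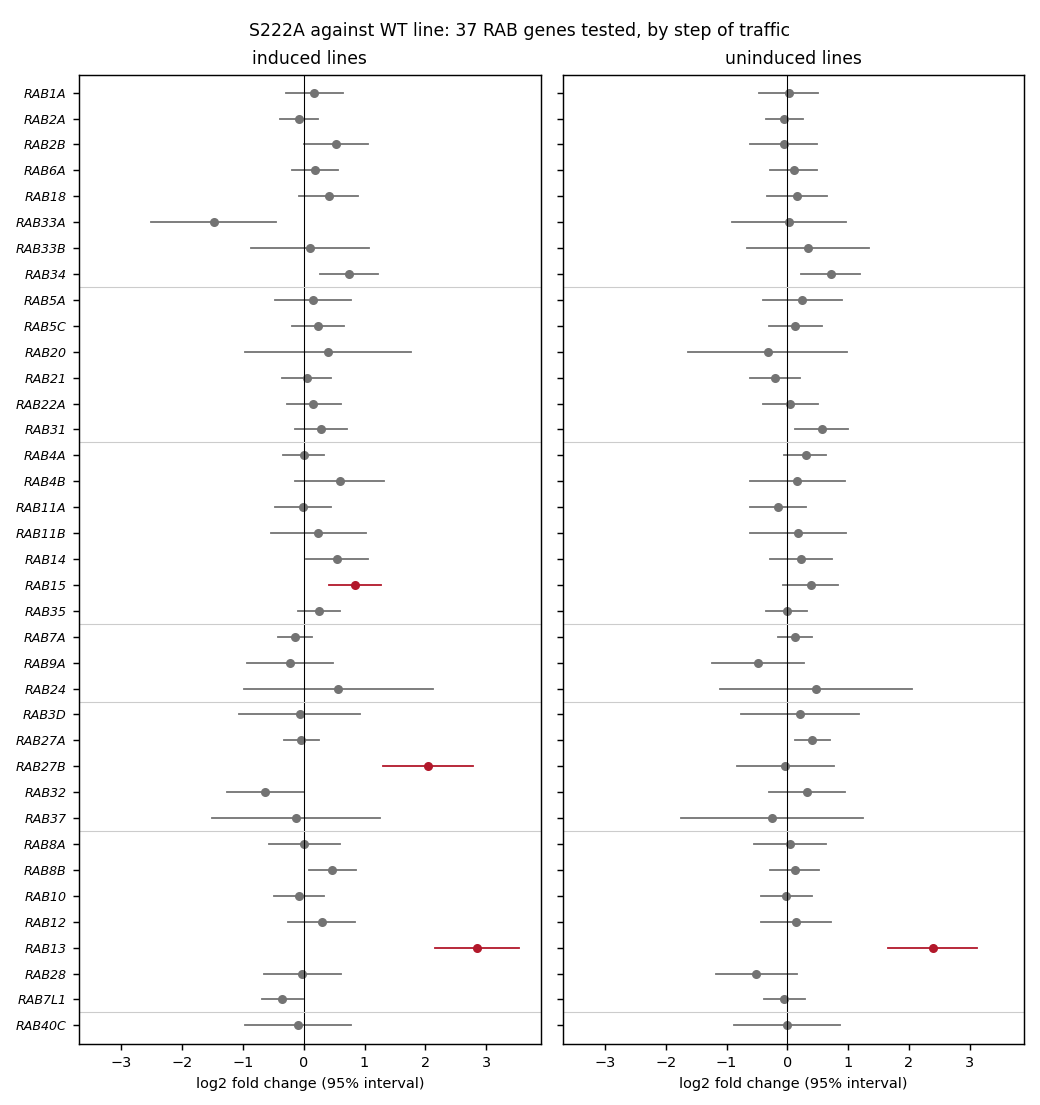
Log2 fold change with its 95% interval for the 37 tested RAB genes between the induced lines and between the uninduced lines, S222A over WT, grouped by step of traffic. Red marks genes called higher in the S222A line and grey genes not called; RAB13 lies at 2.85 and 2.39, and RAB27B at 2.05 with doxycycline and -0.04 without.

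RAB40B, a SOCS-box RAB that recruits a ubiquitin ligase, was below the filter on low counts and is named after its values were seen. It had 17, 10 and 20 counts in S222A induced libraries, against 1, 0 and 0 counts in S222A uninduced libraries. The S222A uninduced counts lay below the floor of 3 counts a library, so the size of the ratio is not given. The exact interval of the ratio of summed counts per depth began at 4.71 and covers counting error only. With no filter on low counts, edgeR called RAB40B on S222A induction (adjusted p = 0.00212), where 568 of 31447 genes were called. The WT libraries, at 7, 1 and 2 counts when induced, against 3, 8 and 3 counts when uninduced, lay between these groups once divided by depth: 0.526 to 1.12 CPM in WT induced and 1.23 to 1.55 CPM in WT uninduced libraries, with 1.59 to 5.89 CPM in S222A induced ones. Between the induced lines RAB40B had 47 counts in all in S222A libraries and 10 in WT libraries (ratio 2.72, interval 1.36 to 6.04), and was not called (adjusted p = 0.323). Without doxycycline it had 1 count in all in S222A libraries and 14 in WT libraries, and was not called (edgeR with no filter, adjusted p = 0.308).

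The machinery that drives RABs was tested from lists of 8 membrane cycle genes, 38 exchange factors, 37 TBC GTPase-activating proteins, 41 effectors and tethers and 7 RAB-like GTPases. On S222A induction, 0 of 8 tested cycle genes, 0 of 32 exchange factors, 0 of 30 TBC proteins and 0 of 6 RAB-like GTPases were called by edgeR. At an unadjusted p under 0.05 there were 5 exchange factors (15.6%) and 4 TBC proteins (13.3%), both below the 19.1% of all tested genes. Their median log2 fold changes were 0.22 and 0.28, with 0.01 over all tested genes. Groups did not overlap for 6 exchange factors (18.8%) and 10 TBC proteins (33.3%), all on the higher side, where 27.5% of all genes had such groups, 14.4% on the higher side. Of 32 effectors and tethers, 3 rose and 1 fell (12.5%), where 4.45% of all genes were called, and the median was 0.03. On WT induction 0 members of any of these lists were called by edgeR, and 1 exchange factor but no member of the other lists had an unadjusted p under 0.05.

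SYTL1, a synaptotagmin-like effector that binds RAB27 proteins, was the effector that fell. It was at 10.7, 12.7 and 13.5 CPM in S222A induced libraries, against 28, 19.3 and 23 CPM in S222A uninduced libraries (fold 0.524, edgeR adjusted p = 0.0425). The groups did not overlap. RAB11FIP4, an effector of recycling RABs, was at 14.9, 12.7 and 13.2 CPM in S222A induced libraries, against 3.84, 6.57 and 4.38 CPM in S222A uninduced ones (fold 2.8, adjusted p = 0.0422). OPTN, the RAB8 effector optineurin that also serves as an autophagy receptor, was at 20.1, 21.4 and 16.6 CPM in S222A induced libraries, against 8.29, 8.21 and 6.57 CPM in S222A uninduced ones (fold 2.43, adjusted p = 0.0397). Both were higher in every induced library. APPL2, a RAB5 effector of signalling endosomes, was at 22.5, 25.2 and 20.6 CPM in S222A induced libraries, against 9.97, 11.1 and 9.86 CPM in S222A uninduced ones (fold 2.2, adjusted p = 0.0491). None of these 4 calls held when any 1 of the 6 S222A libraries was left out, with adjusted p of 0.0681 to 0.199 for SYTL1, 0.081 to 0.191 for RAB11FIP4, 0.0745 to 0.144 for OPTN and 0.0938 to 0.158 for APPL2.

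**Figure D4:**
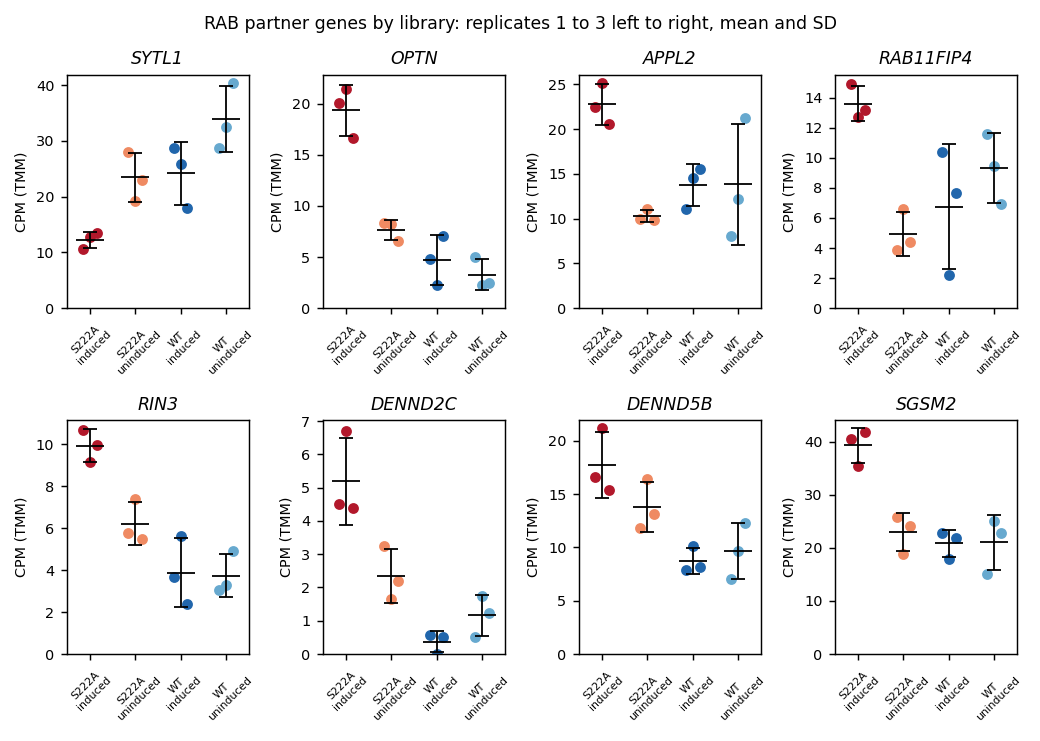
Levels in CPM of 4 RAB effectors, 3 exchange factors and the TBC protein SGSM2, each called in at least 1 comparison, by library, for the 4 groups, with replicates 1 to 3 from left to right and bars for the mean and SD. OPTN lay at 16.6 to 21.4 CPM in S222A induced libraries, above all other groups, and SYTL1 was lowest there.

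Between the induced lines, 3 exchange factors, 1 TBC protein and 1 effector were higher in the S222A line, and 1 effector was lower. These were 9.38% of the exchange factors, 3.33% of the TBC proteins and 6.25% of the effectors, where 6.34% of all genes were called. DENND2C, an exchange factor of the DENN family, was at 4.5, 6.69 and 4.38 CPM in S222A induced libraries, against 0.585, 0 and 0.526 CPM in WT induced libraries (edgeR adjusted p = 0.00554). It had 13, 30 and 55 counts in S222A induced libraries, against 4, 0 and 2 counts in WT induced libraries, near the floor of 3 counts a library, and it passed the filter on low counts through the S222A libraries, so the size of its fold is not given. OPTN was at 20.1, 21.4 and 16.6 CPM in S222A induced libraries, against 4.82, 2.24 and 7.11 CPM in WT induced ones (fold 3.66, adjusted p = 0.00589). Both calls held whichever single library was left out (highest adjusted p = 0.0408 and 0.0335). RIN3, a RAB5-family exchange factor (fold 2.84, adjusted p = 0.0184), DENND5B (fold 2.1, 0.0288), SGSM2, a TBC protein for RABs of melanosomes (fold 1.84, 0.0277), and SYTL1 (fold 0.517, 0.0321) were less stable. RIN3 and DENND5B held without WT induced replicate 2 (0.0205 and 0.0476) and SYTL1 without WT induced replicate 3 (0.0308), each was lost when any other library was left out, and SGSM2 was lost whichever library was left out (0.0512 to 0.0982). Between the uninduced lines 0 members of these lists were called by edgeR. At an unadjusted p under 0.05 there were 3 exchange factors, 3 TBC proteins, 3 effectors and 1 RAB-like GTPase. These were 9.38%, 10%, 9.38% and 16.7% of each list, where 7.48% of all genes passed. Without doxycycline OPTN was at 8.29, 8.21 and 6.57 CPM in S222A libraries, against 5.05, 2.32 and 2.45 CPM in WT ones. RIN3 was at 5.77, 7.39 and 5.48 CPM, against 3.03, 3.28 and 4.9 CPM. SYTL1 was at 28, 19.3 and 23 CPM, against 28.8, 32.4 and 40.4 CPM. These groups did not overlap, where 12.3% of all genes had such groups, and those of DENND2C, DENND5B and SGSM2 overlapped.

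MPO, the myeloperoxidase of primary granules and a marker of the myeloid list, also fell on S222A induction, the 1 of 6 tested myeloid markers called there. It was at 0.693, 3.34 and 2.31 CPM in S222A induced libraries, against 9.13, 4.92 and 7.67 CPM in S222A uninduced libraries (fold 0.305, edgeR adjusted p = 0.0377). In the WT line it was at 10.4, 4.48 and 10.3 CPM in induced libraries, against 18.2, 19.3 and 15.5 CPM in uninduced ones. MPO was thus lower in every induced library of the WT line too. Every S222A uninduced library was also below every WT uninduced one. In bulk RNA, fewer cells of a type and less RNA per cell cannot be told apart, and the part of such a shift in the RAB values was not tested.

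The deepest library of each group stood apart from the other 2, and many genes moved with it, RAB genes among them. These libraries were S222A induced 3, S222A uninduced 1, WT induced 1 and WT uninduced 2. A term for them was called higher at 10 (27%) and lower at 2 (5.41%) of the 37 RAB genes, where 19.3% of all genes were higher and 19.2% lower. Both directions together took 32.4% of the RAB genes, a smaller share than the 38.4% of all tested genes. RAB11B, of slow recycling, had the lead at a log2 difference of 0.82 (edgeR adjusted p = 9.25e-06), at 93.9 CPM in the deepest S222A induced library and 45.7 and 56.4 CPM in the others. Among those called, RAB5A, of early endosome fusion, followed at 0.64 (7.21e-05), and RAB8A and RAB10 were lower by log2 differences of -0.52 and -0.38. Differences of 0.67 for RAB20, -0.65 for RAB33B and -0.64 for RAB3D were not called. The part of these libraries in the induction effects was not tested. The ratios within each depth class, which rest on 1 deepest library and 2 others a group, are descriptions. RAB27B on S222A induction had log2 ratios of 1.48 between the deepest libraries and 1.59 between the others. RAB33A had -1.52 between the deepest libraries and -2.22 between the others, and RAB32 had -0.84 and -1.8 between the same pairs. For RAB13 between the induced lines they were 3.15 and 2.58, and between the uninduced lines 2.64 and 2.22.

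**Figure D5:**
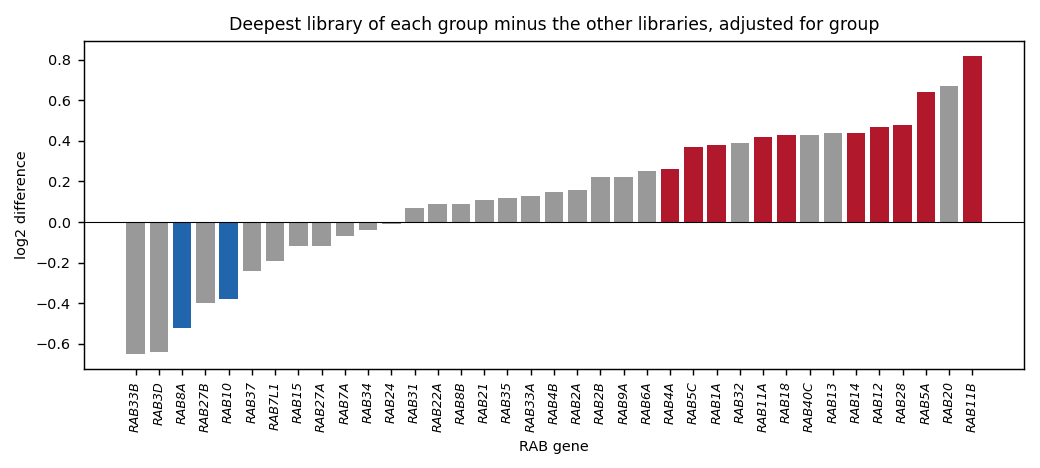
Log2 difference between the deepest library of each group and the other libraries, for the 37 tested RAB genes, in order of size. Red bars are called higher, blue ones lower and grey ones not called, with RAB11B at 0.82 as the highest. The genes called on S222A induction were not called for this term, at -0.4 for RAB27B, 0.39 for RAB32 and 0.13 for RAB33A. RAB13 and RAB15, called between the lines, were at 0.44 and -0.12, also not called. RAB10, at -0.38, was called. The part of this term in the other calls was not tested.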

How the data were processed

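RNA was measured in 12 libraries, 3 in each of 4 groups taken from the sample titles. The deposited table holds whole-number counts by gene symbol, with no normalization by the authors. Its header line lacks 1 tab, and the columns for the S222A line carry no S222A in their names, so each column was tied to its sample through the description in the labels. The submitters' processing notes name hg19, STAR 2.4, HTSeq 0.6.1 and DESeq2, without roles. Neither the annotation nor the strandedness of counting is given in the sources used here.

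From these counts, edgeR 4.0.16 in R 4.3.3 fitted 1 mean per group over all 12 libraries, with TMM factors, filterByExpr at a minimum count of 10 and the robust quasi-likelihood F test. P-values were Benjamini-Hochberg adjusted over all 11474 genes tested and called under 0.05, for 5 comparisons. Levels are CPM with TMM factors. An SE is the size of the log2 fold change over the root of F, and intervals are at 95%. A floor of 3 counts corresponded to 0.228 to 3.43 CPM, and intervals on counts cover counting error only. No 2 libraries of a group were alike within sampling noise (chi-square over 12 pairs). Replicate numbers were not used to pair libraries.

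Alternatives were RLE and upper quartile factors, no filter, a minimum count of 30, DESeq2 1.42.0, limma 3.58.1 with voom, a replicate block, a term for the deepest library of each group, and leaving libraries out. Members, lists and tests were chosen with earlier results of these data known. Genes are named if called, if among the 25 RAB genes with the smallest p on S222A induction, if paralogues of a called RAB, or, from the lists, if called. MEF2C and RAB13, RAB27A and RAB27B are always named. RAB1A, RAB2A, RAB4A, RAB5C, RAB6A, RAB8A, RAB11B, RAB20, RAB24 and RAB37, the untested members and the marker genes fall outside that rule and were named after their values were seen. Exon lengths and overlaps come from GENCODE 29 and promoters from RefSeq, so no coordinate of the hg19 build is given.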

Additional observations from a re-analysis of the deposited data

How the results depend on the processing

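The 3 RAB calls on S222A induction, 1 higher and 2 lower, numbered 3 with RLE or upper quartile factors, with voom and without the deepest library of each group, 4 with DESeq2 (RAB27A added) or no filter (RAB40B added), and 2 at a minimum count of 30. With a term for the deepest library they became 8, where all genes called went to 2052 against 511. Leaving out single libraries gave 0 to 2, where 187 to 329 of all genes were called. With the replicate block 0 RAB genes and 72 of all genes were called. Correlations of same-numbered libraries' deviations from their group means ran from -0.53 to 0.32. The deepest library does not carry the same number in every group, so these correlations cannot show whether the numbers pair the libraries. Between the induced lines the 3 calls became 8 with the term for the deepest library, where all genes called went to 2480 against 727. They became 2 with the replicate block (RAB13 and RAB27B), where 350 of all genes were called. When single libraries were left out they were 2 to 3, where 249 to 582 of all genes were called. Between the uninduced lines the 1 call became 0 without the deepest libraries, 1 with the replicate block and 0 to 1 with single libraries left out. All genes called there went from 45 to 51, 22 and 17 to 30 under the same changes. For the difference of effects the count of 0 became 1 (RAB27B) with the term for the deepest library, where all genes called went to 147 against 9. On WT induction the count of RAB genes was 0 under every alternative run, with at most 6 of all genes called. The cause of these shifts was not tested. Of single-gene log2 values under the alternatives, 10 changed sign, none of them called. RAB21 on S222A induction was 0.15 with all libraries, -0.02 without S222A uninduced replicate 3 and up to 0.31 without other single libraries. RAB27A on WT induction was -0.01 with all, 0.01 without WT induced replicate 2, WT uninduced replicate 1 or WT uninduced replicate 3, and as low as -0.05. MEF2C on WT induction was 0.08 with all, -0.01 without WT uninduced replicate 2 and up to 0.17, and between the uninduced lines -0.07 with all, 0.01 without S222A uninduced replicate 1 and as low as -0.17. RAB27B between the uninduced lines was 0.05 with the replicate block, 0 without the deepest libraries, 0.1 without S222A uninduced replicate 1 and 0.16 without WT uninduced replicate 3, with -0.04 for all and -0.17 as the lowest. Other scaling factors moved the median of all genes by at most 0.024 on the log2 scale. Depth limits the called members too: over the 12 libraries RAB27B had 3 to 122 counts, RAB13 3 to 390, RAB32 10 to 165 and RAB33A as few as 2. MEF2C on S222A induction was called only with the term for the deepest library among the alternatives run.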
